A study of Mus musculus with 4 samples.

Results

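The 10 genes described here encode immune checkpoint receptors, their ligands and a transcription factor of exhausted T cells. They are Pdcd1, Ctla4, Lag3, Havcr2, Tigit, Cd274, Pdcd1lg2, Cd80, Cd86 and Tox, and they were taken by symbol from the 32285 genes counted in each of 4 single-cell libraries. All 10 are present in the 4 count matrices. The libraries come from an AF12198-treated KPC tumour, a control KPC tumour, a pancreas ligated by suture and a normal pancreas, with 1 library per group. Both tumours grew from KPC cells, a line of mouse pancreatic cancer, put into a ligated pancreas, so the ligation, which occludes the duct and brings on pancreatitis, is common to both tumours and the ligated pancreas. Treated mice were given AF12198, a peptide that blocks the interleukin-1 receptor IL1R1, by weekly intraperitoneal injection, control mice were given saline, and tissue was taken at 4 weeks. The labels name no strain, age, sex or number of mice per library, and no allele of the KPC cells.

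T cells that meet antigen for long carry inhibitory receptors on their surface, each of which dampens activation when it binds its ligand on another cell. PD-1, encoded by Pdcd1, binds PD-L1 (Cd274) and PD-L2 (Pdcd1lg2). CTLA-4, which regulatory T cells hold at high levels, competes with the costimulatory receptor CD28 for CD80 and CD86 on antigen-presenting cells. LAG-3 binds MHC class II, TIM-3 (Havcr2) is found on T cells and on dendritic cells, TIGIT binds the poliovirus receptor family, and TOX is a nuclear factor needed for the exhausted state of CD8 T cells. In pancreatic cancer these receptors are known from infiltrating T cells, and the ligands from macrophages, neutrophils and dendritic cells.

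Gene spans are those of GENCODE M21 on the GRCm38 build. Cd274 (chr19:29367455-29388095, plus strand) and Pdcd1lg2 (chr19:29410919-29471161, plus strand) are neighbours, 22823 bases apart. Ctla4 (chr1:60887000-60915832, plus strand) lies between the genes of the costimulatory receptors Cd28 and Icos, at 113640 and 62094 bases. Lag3 (chr6:124904361-124911705, minus strand) lies 16139 bases from Cd4 and only 1975 bases from Ptms, a widely transcribed gene on the same strand. Pdcd1 (chr1:94038305-94052553, minus strand) shares its chromosome with Ctla4. Cd80 (chr16:38455561-38496335, plus strand), Cd86 (chr16:36603869-36666081, minus strand) and Tigit (chr16:43648867-43664146, minus strand) share another. Havcr2 (chr11:46454935-46481255, plus strand) and Tox (chr4:6686353-6991557, minus strand) have no other member on their chromosome.

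Sequence is shown for the 250 bases before the transcription start of the 3 genes on which most of the results turn, the receptors of T cells Pdcd1 and Ctla4 and the ligand Cd274. It was read from the RefSeq promoter table for GRCm38.p6, which matched 7 of the 10 members, and not Lag3, Cd86 and Tox. Capitals mark GGAAA or its reverse complement, the core of sites for NFAT, a factor of T cell activation. Each run reads 5′ to 3′ on the strand of its gene.
Pdcd1 (chr1:94052554-94052803, minus strand): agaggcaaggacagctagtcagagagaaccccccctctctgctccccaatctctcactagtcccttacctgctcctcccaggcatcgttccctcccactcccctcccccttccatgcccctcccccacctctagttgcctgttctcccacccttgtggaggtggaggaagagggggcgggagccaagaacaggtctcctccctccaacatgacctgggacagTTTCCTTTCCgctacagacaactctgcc
Ctla4 (chr1:60908775-60909024, plus strand): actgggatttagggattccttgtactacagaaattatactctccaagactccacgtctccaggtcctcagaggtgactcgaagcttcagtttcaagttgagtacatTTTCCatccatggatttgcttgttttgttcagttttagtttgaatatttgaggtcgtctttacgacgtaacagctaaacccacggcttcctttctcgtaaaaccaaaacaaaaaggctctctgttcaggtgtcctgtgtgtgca
Cd274 (chr19:29367188-29367437, plus strand): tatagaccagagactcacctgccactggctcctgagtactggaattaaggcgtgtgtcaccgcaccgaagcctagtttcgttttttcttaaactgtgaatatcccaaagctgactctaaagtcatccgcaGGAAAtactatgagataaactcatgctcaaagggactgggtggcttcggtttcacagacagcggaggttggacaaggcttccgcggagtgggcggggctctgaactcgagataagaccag

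Pdcd1 holds 2 such matches, 28 and 23 bases before the start, Ctla4 holds 1 at 144 bases and Cd274 holds 1 at 120 bases. The Ctla4 window, taken before the RefSeq start, lies inside the gene span of GENCODE. On both strands GGAAA was found in 5 of the 7 windows, and in 55.6% of all 32851 windows of this length. The AP-1 motif TGANTCA was found in the windows of Havcr2 and Cd80 (6.75% of all windows), and the kappaB form, GGG and CC with 5 bases of any kind between them, in those of Pdcd1lg2 and Cd80 (45.8%). The GAS motif TTCNNNGAA (7.02%) and the interferon motif of GAAA repeated after 2 bases of any kind (2.98%) were found in 0 of the 7. Each match describes the letters only.

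After filtering, 18875 cells of the AF12198-treated tumour, 19235 of the control tumour, 1124 of the ligated pancreas and 1771 of the normal pancreas remained, with medians of 2298, 2035, 2216 and 1589 unique molecular identifiers (UMIs, counts of single RNA molecules) per cell. Cells were clustered without the 10 genes and named by marker genes, hence the ending -like. Levels are CPM, the UMIs of a gene in each 1000000 UMIs of all cells of a class. All intervals are 95% and cover counting error only, so no difference below has a replicate check and no p-value is given. A gene is called higher or lower at 1.5-fold, where its 2 libraries hold at least 25 cells of the class each and 20 UMIs of the gene together. Levels of different genes are not ranked against each other. The 2 tumour libraries share 129 barcodes, of which 92 passed the filters.

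Libraries stood apart from their neighbours in ways that touch every comparison of the tumours. Ribosomal protein genes took a larger share of UMIs in the AF12198-treated tumour in 22 of 22 classes, by a median factor of 1.82 (for example 26.0% against 13.4% in CD8 T-like cells). 7 early-response and heat-shock genes that dissociation of tissue is known to induce (Fos, Jun, Junb, Dusp1, Nr4a1, Hspa1a and Hspa1b) were, summed, lower in the treated tumour in 22 of 22 classes, by a median ratio of 0.411. The median gene was lower in the treated tumour in each class compared, with log2 ratios from −0.94 (acinar-like) to −0.10 (lymphatic endothelial-like) and a middle value of −0.34. Ratios of the tumours are therefore also given relative to the median of all genes in the class. The estimated share of free RNA, which comes from other cells, was lower in the treated tumour in most classes compared. It was 15.4% against 26.4% in neutrophil-like cells and 5.18% against 16.9% in NK-like cells. The share was higher in the treated tumour in pDC-like, mast or basophil-like, epithelial-like and ductal-like cells (12.4% against 7.23% in ductal-like). Counts with free RNA subtracted are given below. The part of these differences in the results was not tested.

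In whole libraries Pdcd1, Ctla4 and the ligands were abundant in the tumours and scarce in the pancreas. Pdcd1 stood at 36.1 CPM in the AF12198-treated tumour, 42.9 in the control tumour, 3.57 in the ligated pancreas and 0.0890 in the normal pancreas, and Ctla4 at 34.2, 45.2, 5.46 and 0.623 CPM in the same order of libraries. Cd274 stood at 181 CPM in the AF12198-treated tumour, 140.3 in the control tumour, 24.5 in the ligated pancreas and 7.74 in the normal pancreas. Thus all 3 follow the order of tumour, ligated and normal tissue, and Cd80 (114, 158, 22.4 and 0.534 CPM) and Cd86 (98.1, 90.8, 13 and 1.87 CPM) do the same. Pdcd1lg2 had 37.9, 25.6 and 1.13 CPM in the treated tumour, the control tumour and the ligated pancreas, and 0 UMIs in the normal pancreas. Lag3 did not follow that order, at 16.0, 21.6, 20.9 and 15.5 CPM, and Tox differed little between the treated tumour and the pancreas libraries, at 10.3, 16.0, 8.09 and 8.81 CPM. A level in a whole library cannot tell fewer cells of a type from less RNA per cell, so the classes are taken one by one below.

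The cells that held these UMIs differed by gene. CD8 T-like cells held 53.5% of the Pdcd1 UMIs of the treated tumour and 61.1% of those of the control tumour. Ctla4 UMIs were spread over CD8 T-like cells (27.0% and 38.9%) and regulatory T-like cells (29.3% and 19.7%). Neutrophil-like cells held the largest share of Cd274 (59.6% and 49.1%) and of Cd80 (55.3% and 48.0%), and macrophage-like cells the largest share of Cd86 (70.3% and 42.1%), Pdcd1lg2 (44.5% and 26.9%) and Havcr2 (36.3% and 27.6%). These shares depend both on cell numbers and on the level in each class. The libraries held 7430 and 6015 neutrophil-like cells, 3756 and 2289 macrophage-like cells, and 740 and 1282 CD8 T-like cells. In the control tumour, monocyte-like cells held a further 24.2% of Cd86.

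**Figure D1:**
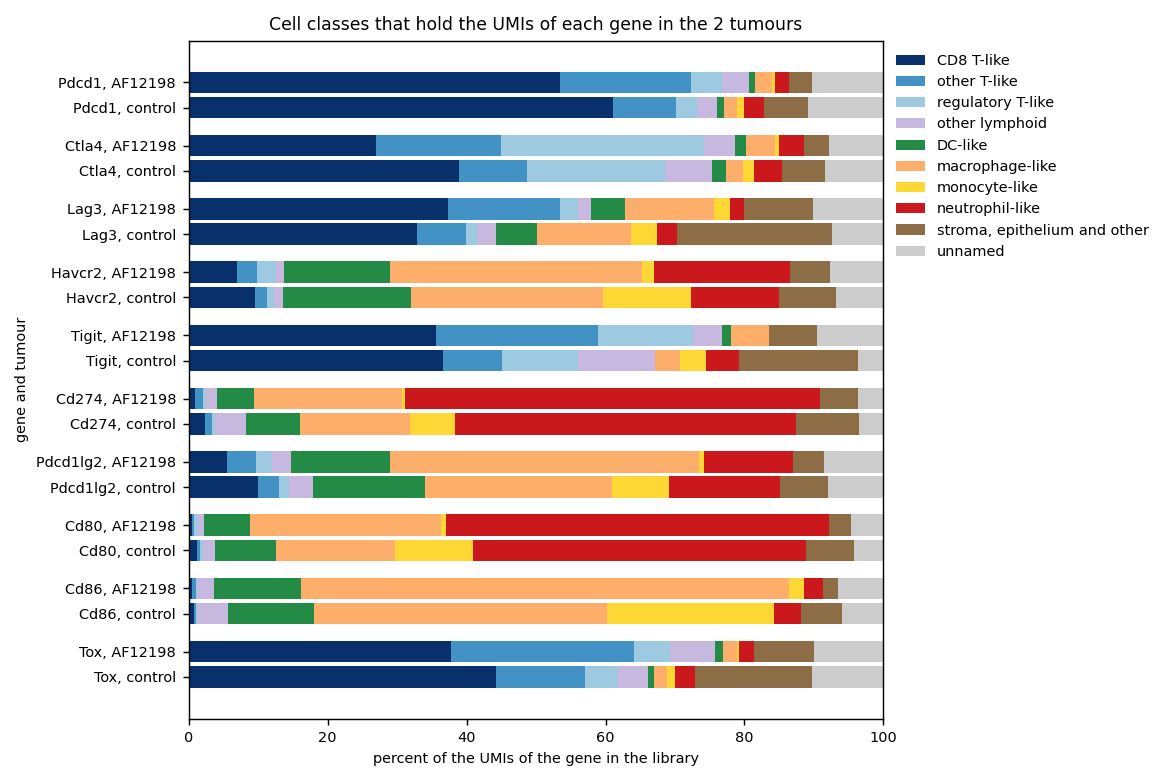
Share of the UMIs of each gene (horizontal axis, percent of the UMIs of the gene in the library) held by each group of cell classes, with 1 bar per gene and tumour, the AF12198-treated tumour above the control tumour. Blue shades of T-like cells lead the bars of Pdcd1, Ctla4, Tigit and Tox, red of neutrophil-like cells leads those of Cd274 and Cd80, and orange of macrophage-like cells leads those of Cd86, Pdcd1lg2 and Havcr2.

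**Figure D2:**
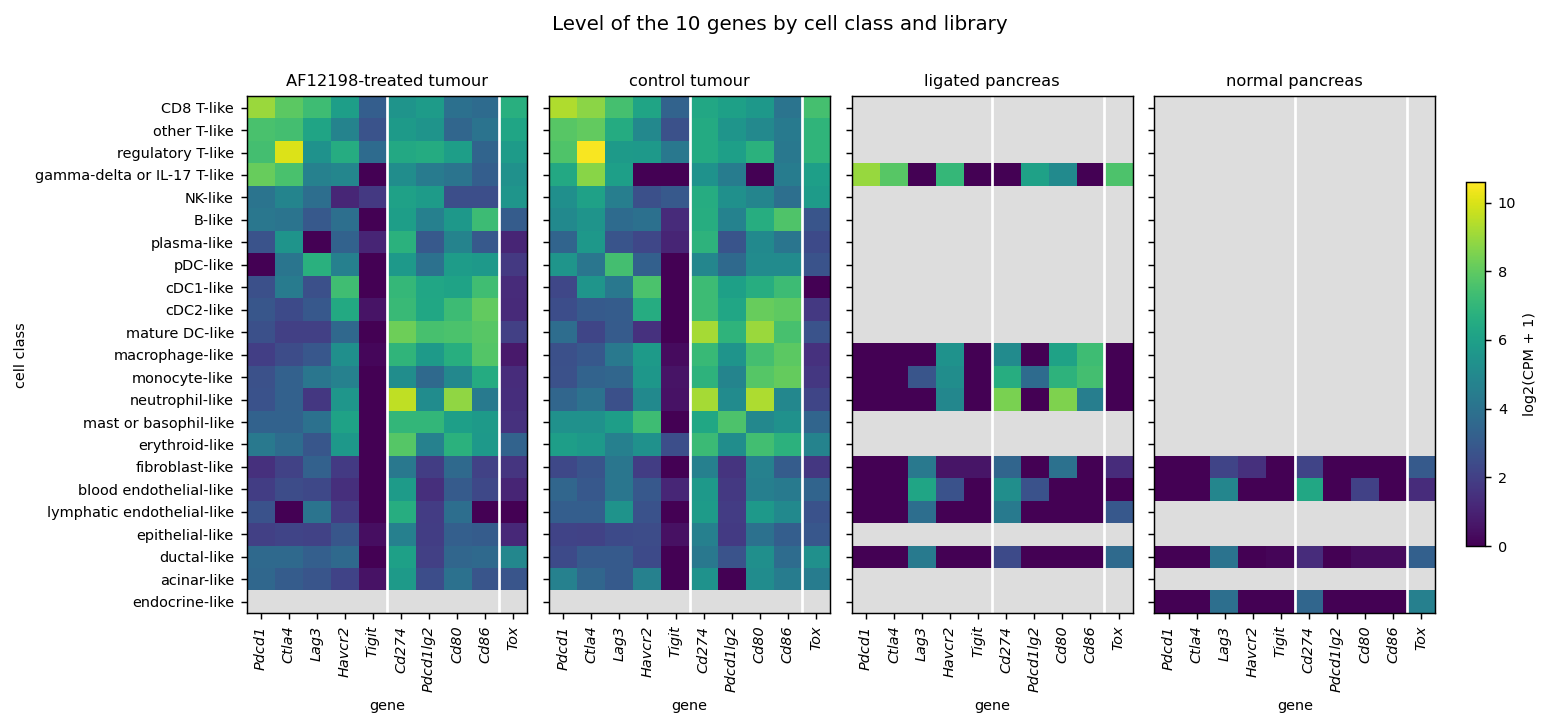
Level of each gene (columns, as log2(CPM + 1), colour scale) in each cell class (rows) and library (panels), with white lines between receptors, ligands and Tox, and grey for classes of fewer than 25 cells in that library. In the tumours Pdcd1 and Ctla4 are brightest in the T-like rows, and Lag3 in the CD8 T-like and pDC-like rows. Havcr2 is brightest there in the cDC1-like row, and Cd274 and Cd80 in the neutrophil-like and mature DC-like rows. The pancreas libraries are dark except for Lag3, Tox, Cd274 and Cd80 in some stromal or duct classes. The few immune classes of the ligated pancreas are a further exception.

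Among the receptors, Pdcd1 was most abundant in CD8 T-like cells. It reached 509.9 CPM (486 to 535, 1656 UMIs) in the AF12198-treated tumour and 649 CPM (621 to 677, 2105 UMIs) in the control tumour, 1.27-fold lower in the treated tumour (1.19 to 1.36) and short of the 1.5-fold call. On the log2 scale this is −0.35, and relative to the class median it is 0.09, so the direction flips with the scaling. The 10 pan-T markers summed in these cells to 4685 CPM in the treated and 3639 CPM in the control tumour. Such markers were used to name the class, so they are no separate check of the label. The CD8 part of the label was set by Cd8a against Cd4. The 2 libraries filled the class with different clusters. Cluster T0 gave 614 of the treated cells and 26 of the control cells, T12 gave 6 and 1135, and either may be its library more than a cell type. The cycling cluster T8, led by histone genes, gave 120 and 121 cells.

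Pdcd1 was higher in the control tumour in T0 and T8, and T12 was not compared for its 6 treated cells. It was at 372 CPM in the treated and 609 CPM in the control cells of the cycling cluster T8, and at 586 and 994 CPM in T0, where the control tumour has few cells. T12 of the control tumour stood at 653 CPM. The share of CD8 T-like cells with a Pdcd1 UMI ran the other way, at 72.0% in the treated and 60.1% in the control tumour, at medians of 3410.0 and 2018.5 UMIs per cell. With each cell thinned to 1500 UMIs the shares were 50.6% and 57.9%. Epithelial-like cells, which should lack the receptor, showed a UMI in 1.94% and 2.73% of cells at medians of 4789 and 5372 UMIs, and in 0.127% and 0.545% after thinning.

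Other lymphoid classes held less Pdcd1. Other T-like cells, a class of clusters with T cell markers and no clear CD8 or regulatory program, stood at 188 CPM in the treated and 230.0 CPM in the control tumour. The tumours filled this class too mostly with different clusters. T2 gave 591 treated and T13 gave 450 control cells, while T4 gave 319 and 36 and T1 gave 245 and 170. Regulatory T-like cells stood at 173 and 206 CPM. Gamma-delta or IL-17 T-like cells, marked by Trdc, Il17a and Cd163l1, had 283 CPM in the treated tumour (71 UMIs), 83.1 CPM in the control tumour (4 UMIs) and 494 CPM in the ligated pancreas (15 UMIs, 277 to 815). Treated over control was 3.41-fold there (1.27 to 12.9), on 122 and 28 cells. This was the 1 class of 16 in which Pdcd1 was called higher, while 9 were lower. None of those 9 was a T-like class, and the highest level among them was 60.5 CPM, in erythroid-like cells of the control tumour. CD8 T-like, other T-like and regulatory T-like cells were called in neither direction. Over all genes and classes of this comparison 10.8% of gene and class pairs were higher and 35.7% lower. NK-like cells had 15.7 and 37.3 CPM, 2.38-fold lower in the treated tumour (1.15 to 5.14). Those 35 gamma-delta or IL-17 T-like cells held 78.9% of all Pdcd1 UMIs of the ligated pancreas. In its macrophage-like, monocyte-like, neutrophil-like, fibroblast-like, endothelial-like and ductal-like cells Pdcd1 had 0 UMIs, which in ductal-like cells allows a level of up to 1.38 CPM (3 counts).

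Ctla4 was most abundant in regulatory T-like cells, a class of 247 treated and 172 control cells led by Foxp3 and Il2ra. It stood at 1047 CPM (978 to 1119) in the treated tumour and 1447 CPM (1343 to 1557) in the control tumour, 1.38-fold lower (1.25 to 1.53). At 1500 UMIs per cell 67.2% and 70.4% of these cells had a Ctla4 UMI. In CD8 T-like cells the gap was wider: 244 CPM (227 to 261) in the treated and 436 CPM (413 to 459) in the control tumour, 1.79-fold lower (1.64 to 1.95), and 28.2% and 40.5% of thinned cells with a UMI. Without ribosomal protein genes in the total the CD8 difference was 1.53-fold, and relative to the class median it was 1.32-fold, under the call. It was lower in the treated cells of clusters T0 (272 against 402 CPM), T8 (190.3 against 277) and T1 of the other T-like cells (202 against 369).

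Ctla4 was lower in the AF12198-treated tumour in 10 of 16 classes and higher in 0 (35.7% and 10.8% of all gene and class pairs). Relative to the class median it was lower in 5 classes and higher in 0. The 10 include classes of low level, such as fibroblast-like (3.31 and 5.81 CPM) and neutrophil-like cells (8.81 and 15.1 CPM). In neutrophil-like cells the sign turned with free RNA subtracted (log2 0.15). Other T-like cells had 170.3 and 263 CPM, 1.54-fold lower and 1.11-fold relative to the class median, and NK-like cells 26.5 and 66.1 CPM. Plasma-like cells, which make antibody, had 44.0 and 49.9 CPM, and in the ligated pancreas 1 plasma-like cell held 14 UMIs, 48.3% of the Ctla4 UMIs of that library. In the normal pancreas the gene had 7 UMIs, all in B-like cells.

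**Figure D3:**
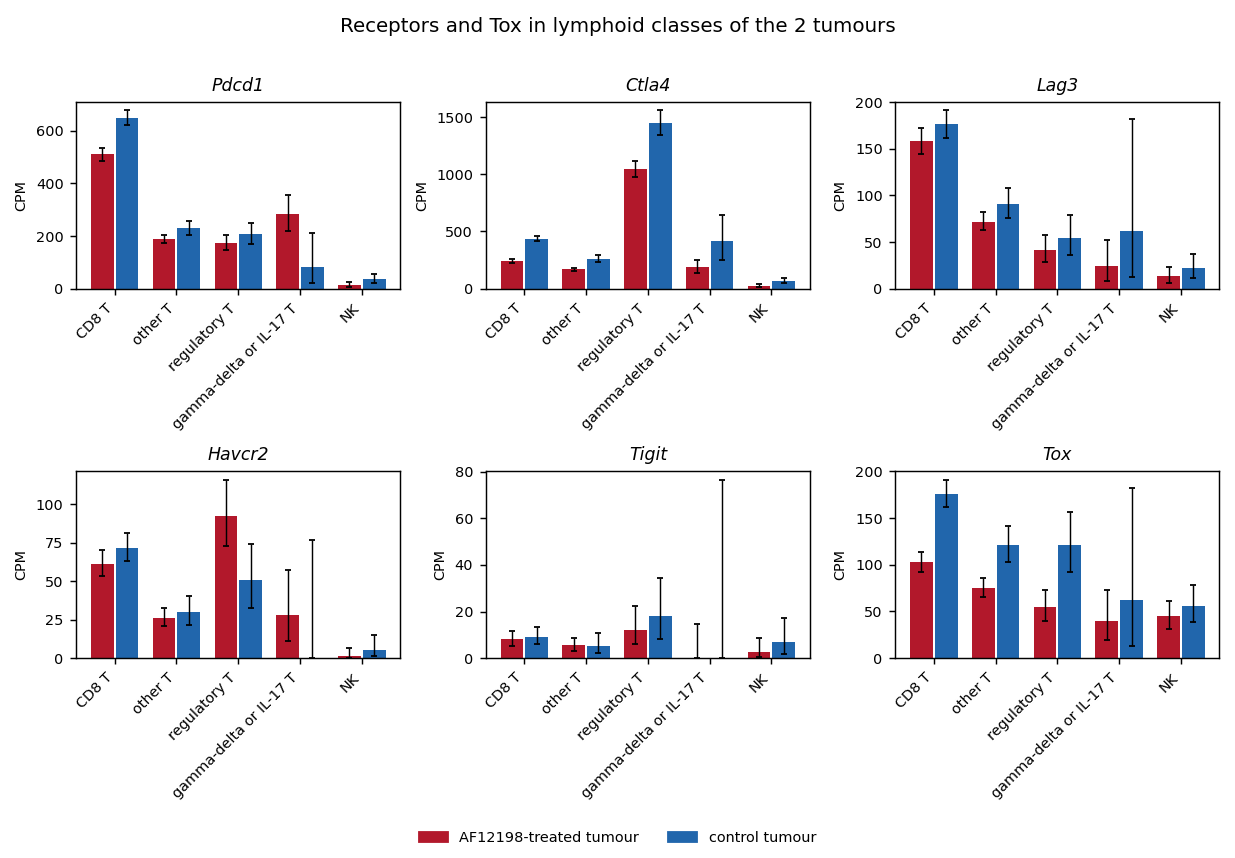
Level (vertical axis, CPM, each panel with its own scale from 0) of the 5 receptors and Tox in lymphoid classes of the AF12198-treated tumour (red) and the control tumour (blue), with bars for 1 library each and error bars for the 95% counting interval. Ctla4 in regulatory T-like cells (1047 against 1447 CPM) and Tox in CD8 T-like cells (103 against 176 CPM) are lower in the treated tumour, while Havcr2 in regulatory T-like cells (92.5 against 50.5 CPM) is higher.

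Lag3, whose product binds MHC class II, differed little between the tumours in CD8 T-like cells, at 158 CPM (144 to 172) in the treated and 176 CPM (162 to 191) in the control tumour. This is 1.11-fold lower (0.987 to 1.26), and without ribosomal protein genes 1.05-fold higher, so the direction depends on the total. Plasmacytoid dendritic (pDC-like) cells, the producers of type I interferon, were the other rich source, with 105 CPM (76.0 to 140.5) in the treated and 171 CPM (131 to 219) in the control tumour, 1.63-fold lower (1.09 to 2.46), but 1.33-fold, under the call, relative to the class median. A Lag3 UMI was found in 45.3% and 46.1% of them at medians of 4525 and 3407 UMIs, and in 17.1% and 29.4% at 1500 UMIs per cell. Epithelial-like cells showed one in 0.508% and 0.763% at that depth. Across the tumours Lag3 was lower in 10 of 16 classes and higher in 1 (35.7% and 10.8% of all gene and class pairs). Relative to the class median it was lower in 7 and higher in 1. The 1 class called higher was monocyte-like, at 17.0 and 10.3 CPM, which turned lower with doublets kept or at clustering resolution 2.0. Macrophage-like cells had 6.44 and 18.4 CPM, 2.85-fold lower (2.34 to 3.49). The tumours filled this class in different proportions, with 2535 treated and 387 control cells in cluster A3, and 1166 and 1842 in A6. The part of this make-up in the ratios of macrophage-like cells, here and below, was not tested.

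Lag3 UMIs in cells that carry no T cell receptor were read beside those of its neighbour Ptms. In the normal pancreas 79.3% of Lag3 UMIs were in ductal-like cells, where Lag3 had 138 UMIs (15.4 CPM), Ptms had 4412 UMIs (492 CPM) and 5 T cell receptor genes together had 4 UMIs. There were 93.1 and 97.6 Lag3 UMIs per 100 Ptms UMIs in CD8 T-like cells of the treated and control tumour, and 25.1 and 33.7 in pDC-like cells. Fibroblast-like cells had 2.61 and 4.09, and epithelial-like cells 0.911 and 0.80. Blood endothelial-like cells of the ligated pancreas, at 74.4 CPM of Lag3, had 23.3. Lag3 and Ptms are transcribed from the same strand, and whether reads of 1 gene were counted to the other was not tested.

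Havcr2 was a myeloid gene as much as a T cell gene in these tumours. Cross-presenting dendritic (cDC1-like) cells had 164 CPM in the treated and 191 CPM in the control tumour, with a UMI in 66.4% and 62.1% of cells, cDC2-like cells had 86.2 and 93.5 CPM, and epithelial-like cells showed a UMI in 4.80% and 4.30%. CD8 T-like cells had 61.3 and 71.8 CPM, 1.17-fold lower, a difference of 1.00-fold without ribosomal protein genes. Regulatory T-like cells went the other way, with 92.5 CPM (72.9 to 116) in the treated and 50.5 CPM (32.7 to 74.5) in the control tumour, 1.83-fold higher (1.15 to 3.01). With regulatory T cells taken by marker gates within all lymphoid clusters, in place of their own cluster, the factor was 1.49. Mast or basophil-like cells had 67.3 and 159 CPM, 2.36-fold lower. Neutrophil-like cells had 46.8 CPM in the treated tumour, 31.7 in the control tumour and 29.2 in the ligated pancreas, and treated over control was 1.47-fold (1.28 to 1.70), under the call, and 1.93-fold relative to the class median. NK-like cells had 1 and 3 UMIs.

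Tigit was near the limit of these libraries, with 73 UMIs in the treated tumour, 82 in the control tumour, 1 in the ligated pancreas and 1 in the normal pancreas. CD8 T-like cells had 8.01 CPM (26 UMIs) and 9.25 CPM (30 UMIs) in the treated and control tumour. Regulatory T-like cells had 12.2 and 18.2 CPM, and other T-like cells 5.51 and 5.13 CPM. It met the count minimum in 2 classes of the tumours and was called in neither. A difference below the width of these intervals was not detectable at this depth.

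Tox was lower in the AF12198-treated tumour in 8 of 11 classes and higher in 0 (35.7% and 10.8% of all gene and class pairs). Relative to the class median it was lower in 6 and higher in 0. CD8 T-like cells had 103 CPM (91.8 to 114) in the treated and 176 CPM (162 to 191) in the control tumour, 1.71-fold lower (1.49 to 1.97), but 1.46-fold without ribosomal protein genes and 1.27-fold relative to the class median, both under the call. Regulatory T-like cells had 54.8 and 121 CPM, 2.21-fold lower (1.48 to 3.33) and 1.83-fold relative to the class median. Other T-like cells had 75.2 and 121 CPM, 1.15-fold lower relative to the class median. Tox was lower in the treated cells of the cycling cluster T8 too, at 75.8 against 132 CPM. The sign was the same for cells of the lymphoid clusters taken by marker gates, on UMIs of Cd3 genes and of Cd4, Cd8a or Cd8b1. CD8 T cells by gate had 87.0 and 149 CPM, and CD4 T cells 146 and 256 CPM.

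Tox UMIs were also found outside the lymphoid cells. Ductal-like cells had 28.7 CPM in the treated tumour, 39.2 in the control tumour, 11.5 in the ligated pancreas and 8.59 in the normal pancreas, where they held 77.8% of the Tox UMIs of the library. Control tumour over ligated was 3.41-fold in these cells (1.92 to 6.10) and treated tumour over ligated 2.49-fold (1.40 to 4.46). Epithelial-like cells had 1.30 CPM (16 UMIs) in the treated and 6.33 CPM (101 UMIs) in the control tumour, 4.88-fold lower (2.87 to 8.87). The tumours themselves did not differ at 1.5-fold in ductal-like cells.

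CD8 T-like cells often held more than 1 receptor. With each cell at 1500 UMIs, 30.9% of 656 treated cells (27.4 to 34.6) and 41.2% of 874 control cells (37.9 to 44.5) had UMIs of at least 2 of Pdcd1, Ctla4, Lag3, Havcr2 and Tigit, and 75.2% and 81.4% had at least 1. At this depth no cell had all 5. At 2500 UMIs the shares with at least 2 were 53.8% of 530 treated cells and 62.7% of 450 control cells, so that the control tumour was higher at either depth, and 1 treated cell had all 5. Ribosomal protein genes took 26.0% of treated and 13.4% of control UMIs in this class, so equal totals leave treated cells fewer UMIs of other genes. Cells under each depth were left out, from 740 treated and 1282 control cells. The part of both in these shares and the thinned shares above was not tested. In the treated tumour Havcr2 was found in 13% of cells with a Pdcd1 UMI and in 7.40% of cells without, and Lag3 in 21.4% and 15.4%. In the control tumour the shares were 11.8% and 10.7% for Havcr2, and 23.8% and 24.9% for Lag3. Tox was found in 13.3% of treated cells with and 15.4% without a Pdcd1 UMI, and in 18.8% and 20.6% of control cells. At 1500 UMIs per cell the whole class held Havcr2 in 8.70% of control cells and Lag3 in 21.6% of treated cells. Both lie outside the pairs of shares given here, so the 2 sets of shares do not rest on the same thinned counts. Differences between cells with and without a Pdcd1 UMI are therefore not read as a result. At this depth a cell without a UMI may still express the gene.

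Of the ligands, Cd274 was highest in neutrophil-like cells among classes of the treated tumour. It stood there at 775 CPM (759.6 to 791) in the treated tumour, 570.2 CPM (555 to 585) in the control tumour and 357 CPM (264 to 472) in the ligated pancreas, with a UMI in 47.1%, 41.1% and 20.9% of cells. The 3 intervals do not overlap. Treated over control was 1.36-fold (1.32 to 1.41), under the call, and 1.79-fold relative to the class median. Control over ligated was 1.60-fold (1.21 to 2.16) and treated over ligated 2.17-fold (1.64 to 2.93), on 86 cells of the ligated pancreas. Epithelial-like cells had a Cd274 UMI in 14.3% and 17.9% of cells of the treated and control tumour.

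The treated and control neutrophil-like cells fell mostly in different clusters, and Cd274 did not move one way in all of them. Clusters A0 and A4 gave 3647 and 2911 of the treated cells, against 135 and 219 control cells, while A1 and A22 gave 128 and 287 treated cells and 3587 and 1825 control cells. Within A0, led by Gpr84, Il23a and Tnf, Cd274 stood at 862 CPM in the treated and 889 CPM in the control tumour, and within A1 at 391 and 509 CPM. In A4 it stood at 802 and 401 CPM, in the granule cluster A18 at 269.9 and 139.9 CPM, and in A22, led by the interferon-induced genes Slfn4 and Rsad2, at 1606 and 829 CPM. The last was the highest level of Cd274 among these clusters.

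Mature dendritic (mature DC-like) cells, which carry Ccr7 and Fscn1 and present antigen to T cells, had less Cd274 in the treated tumour. Cd274 was at 305 CPM (272 to 341) in the treated and 569 CPM (507 to 635) in the control tumour, 1.86-fold lower (1.59 to 2.19), but 1.46-fold lower, under the call, relative to the class median. The other dendritic classes differed little, with 131 and 154 CPM in cDC1-like and 146 and 155 CPM in cDC2-like cells. Macrophage-like cells had 123 CPM in the treated tumour, 141 in the control tumour and 34.1 in the ligated pancreas (5 UMIs), and control over ligated was 4.13-fold (1.77 to 12.7). Over 21 classes Cd274 was higher in the treated tumour in 5 and lower in 5 (10.8% and 35.7% of all gene and class pairs). Relative to the class median it was higher in 7 and lower in 1. Besides ductal-like cells, the classes called higher were pDC-like (52.3 and 28.0 CPM), lymphatic endothelial-like (95.5 and 55.5), mast or basophil-like (127 and 79.5) and erythroid-like cells (225 and 147). In pDC-like cells Cd80 (57.1 and 33.6 CPM) and Cd86 (52.3 and 33.6 CPM) were higher too, but with doublets kept Cd274 and Cd80 were lower there. The interval of the ratio includes 1 in each of these, except for erythroid-like cells (1.15 to 2.02). An estimate of the share of free RNA in the 75 treated and 460 control erythroid-like cells was 21.8% and 49.5%. The part of RNA from other cells in their Cd274 was not tested.

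Cells outside the immune system carried Cd274 too. Ductal-like cells formed a graded series, with 63.6 CPM in the treated tumour, 18.2 in the control tumour, 4.14 in the ligated pancreas and 1.56 in the normal pancreas. Treated over control was 3.49-fold (1.90 to 6.92), control over ligated 4.40-fold (1.74 to 11.7) and ligated over normal 2.65-fold (1.01 to 6.58). In these cells 10 neutrophil markers summed to 1381, 531, 131 and 37.5 CPM in the same order of libraries, and 12 macrophage markers to 2951, 1490.1, 3678 and 9771 CPM. With free RNA subtracted treated over control was 5.10-fold, and the part of neutrophil RNA in the series was not tested. Blood endothelial-like cells had 55.9, 51.4, 37.2 and 81.8 CPM in the treated, control, ligated and normal libraries, and in the normal pancreas they held 60.9% of Cd274 UMIs. Epithelial-like cells had 23.4 CPM in the treated and 23.8 CPM in the control tumour.

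**Figure D4:**
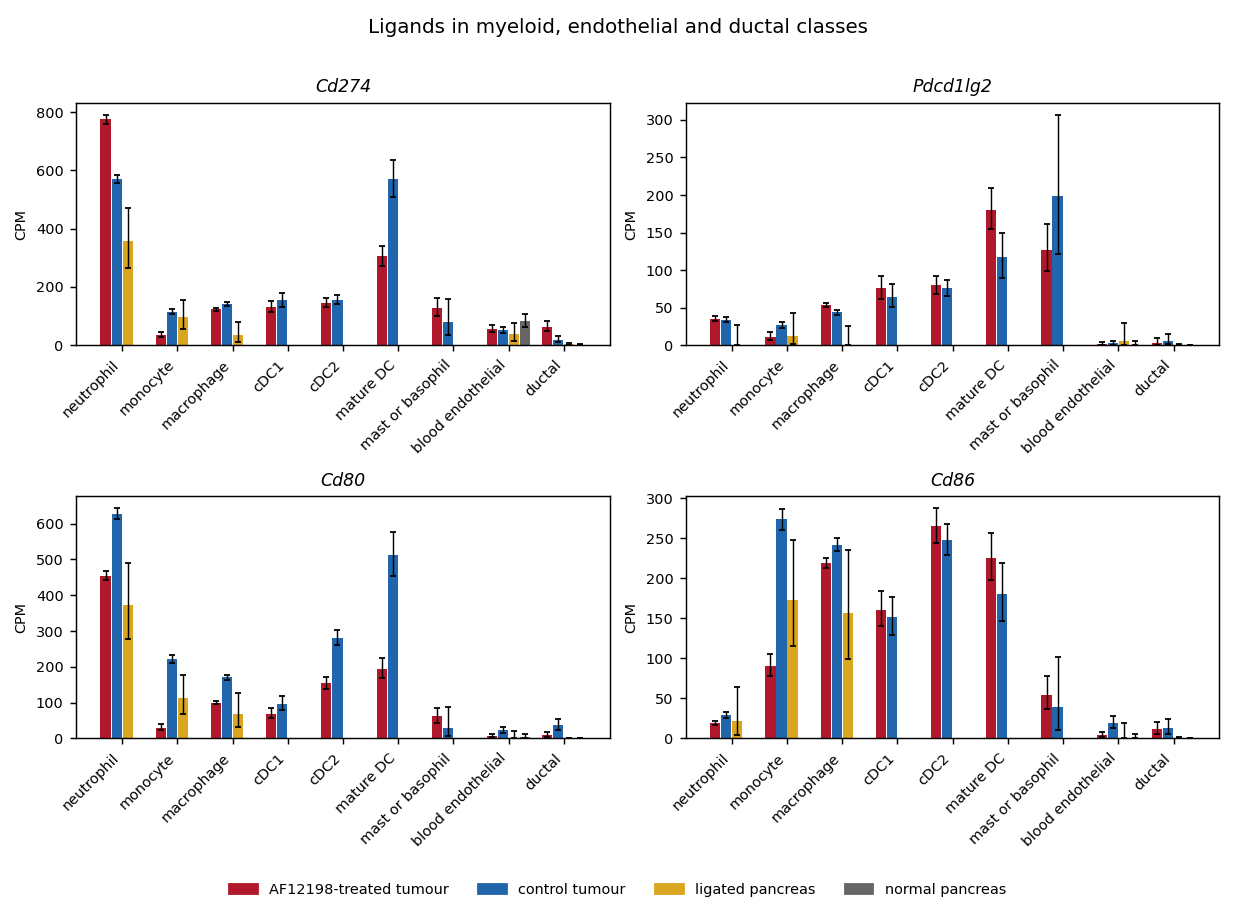
Level (vertical axis, CPM, each panel with its own scale from 0) of the 4 ligands in myeloid, endothelial and ductal classes of the AF12198-treated tumour (red), control tumour (blue), ligated pancreas (yellow) and normal pancreas (grey), with bars for 1 library each, error bars for the 95% counting interval and no bar for classes of fewer than 25 cells. Cd274 in neutrophil-like cells stands at 775, 570.2 and 357 CPM in the treated, control and ligated libraries, and in mature DC-like cells Cd80 (195 against 512 CPM) is lower and Pdcd1lg2 (180.3 against 117 CPM) is higher in the treated tumour.

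Pdcd1lg2, the second ligand of PD-1, was richest in mature DC-like and mast or basophil-like cells. In mature DC-like cells it had 180.3 CPM (155 to 209) in the treated and 117 CPM (89.8 to 149) in the control tumour, 1.55-fold higher (1.16 to 2.09), so that both ligands of PD-1 differed there in opposite directions. Mast or basophil-like cells had 127 and 199 CPM. Macrophage-like cells had 53.5 CPM in the treated tumour, 43.7 in the control tumour and 0 UMIs in the ligated pancreas, at least 2.61-fold higher in the treated and at least 2.14-fold higher in the control tumour than in the ligated pancreas. Neutrophil-like cells had 34.8, 34.0 and 0 CPM in the same libraries. Over 16 classes of the tumours the gene was higher in 1 and lower in 2 (10.8% and 35.7% of all gene and class pairs). Relative to the class median it was higher in 7 and lower in 1.

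Cd80, a ligand of CTLA-4 and CD28, was lower in the AF12198-treated tumour in 16 of 21 classes and higher in 2 (35.7% and 10.8% of all gene and class pairs). Relative to the class median it was lower in 9 and higher in 2. The 16 include classes of low level, such as NK-like cells (4.82 and 27.1 CPM). Neutrophil-like cells had 455 CPM (443 to 467) in the treated tumour, 628 CPM (612 to 644) in the control tumour and 372 CPM (277 to 489) in the ligated pancreas. Treated cells were 1.38-fold lower than control cells (1.33 to 1.43), and control over ligated was 1.69-fold (1.28 to 2.27). Mature DC-like cells had 195 and 512 CPM in the tumours, 2.62-fold lower (2.18 to 3.16), and cDC2-like cells 155 and 281 CPM, 1.82-fold lower. Relative to the class median these were 2.06-fold and 1.30-fold, the second under the call. The tumours filled the cDC2-like class mostly with different clusters. D2 gave 208 treated cells, D7 and D12 gave 152 and 215 control cells, and D6 gave 93 treated and 84 control cells. Macrophage-like cells had 99.8 CPM in the treated tumour, 171 in the control tumour and 68.3 in the ligated pancreas, 1.71-fold lower in treated than in control cells (1.62 to 1.81), but 1.36-fold, under the call, relative to the class median. The macrophage clusters did the same, at 117 against 239 CPM in A3, led by Arg1, and 65.1 against 153 CPM in A6, led by Ccl8.

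Some Cd80 lay outside the myeloid cells. CD8 T-like cells had 14.2 CPM in the treated and 48.7 CPM in the control tumour, where 12 macrophage markers summed to 218 and 1052 CPM in the same cells. An estimate of the share of free RNA in those cells was 3.44% and 13%, and with it subtracted Cd80 stood at 10.2 and 28.2 CPM. Ductal-like cells had 10.3 CPM in the treated tumour, 37.8 in the control tumour and 0 UMIs in the ligated pancreas, at least 27.4-fold higher in control than in ligated ductal-like cells. Fibroblast-like cells had 11.3, 24.4, 14.7 and 0 CPM in the treated, control, ligated and normal libraries. Neutrophil-like cells held the largest share of Cd80 UMIs in the tumours. The part of neutrophil or macrophage RNA in these levels was not tested.

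Cd86, the partner of Cd80, differed less between the tumours in the cells that hold most of it. Macrophage-like cells had 219 CPM (213 to 225) in the treated tumour, 242 CPM (234 to 251) in the control tumour and 157 CPM (99.6 to 236) in the ligated pancreas. Treated cells were 1.11-fold lower than control cells (1.06 to 1.16), but higher relative to the class median (log2 0.19), and control over ligated was 1.54-fold (1.03 to 2.44) on 29 ligated cells. As a mean over cells the second difference turned, to a log2 ratio of −0.16. A UMI was found in 67.2% and 58.8% of macrophage-like cells of the tumours at medians of 6345.5 and 4476 UMIs, but in 26.9% and 29.8% at 1500 UMIs per cell, so the order of the shares turned with depth. Epithelial-like cells showed one in 1.40% and 1.53% at 1500 UMIs. The dendritic classes had slightly more in the treated tumour, with 265 and 248 CPM in cDC2-like, 226 and 180.4 CPM in mature DC-like and 161 and 152 CPM in cDC1-like cells, none of them at 1.5-fold. B-like cells had 153 and 204 CPM.

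Monocyte-like cells differed between the tumours in several ligands. Cd80 stood at 30.3 CPM (23.1 to 39.1) in the treated tumour, 221 CPM (209.9 to 233) in the control tumour and 113 CPM (68.2 to 177) in the ligated pancreas, 7.30-fold lower in treated than in control cells (5.62 to 9.64). With doublets kept the factor was 2.03, and at clustering resolution 2.0 it was 2.35. Cd86 stood at 90.4, 274 and 173 CPM, 3.03-fold lower (2.59 to 3.56), and Cd274 at 36.0, 114 and 95.4 CPM, 3.18-fold lower (2.49 to 4.13). The label is weak for the 550 treated cells of this cluster. Of the monocyte markers Ly6c2 had 75.5 and 248 CPM and Ccr2 358 and 987 CPM in the treated and control tumour, whereas the osteoclast genes Ctsk (2509 and 72.4 CPM) and Acp5 (2292 and 91.3 CPM) ran the other way. The part of this difference in make-up was not tested, and the counts below are also given without the class.

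Taken over the members, treated over control gave 150 pairs of member and class in 22 classes. Of these 12 were higher (8%, against 10.8% of all gene and class pairs) and 69 were lower (46%, against 35.7%), with a median log2 ratio of −0.47. Relative to the class medians 26 were higher and 41 lower (20.2% and 17.9% of all pairs), with a median of −0.11. Without monocyte-like cells 11 of 142 were higher and 64 lower (10.3% and 35.7% of all pairs). Without ribosomal protein genes in the total 15 were higher and 59 lower (13.7% and 28.2% of all pairs). Cd80 was lower in 16 classes, Ctla4 in 10, Lag3 in 10, Pdcd1 in 9 and Tox in 8, whereas Cd274 was lower in 5, Havcr2 in 2 and Pdcd1lg2 in 2.

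By class, 0 of 10 members were higher and 4 lower in CD8 T-like cells (8.76% and 41.0% of the genes compared there), and 0 and 5 of 9 in neutrophil-like cells (7.70% and 38.3%). Macrophage-like cells had 0 higher and 4 lower of 9 (8.19% and 31.6%), and mature DC-like cells 1 and 2 of 4 (12.3% and 35.7%). In CD8 T-like cells the count of lower members is thus near the share of all genes.

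**Figure D5:**
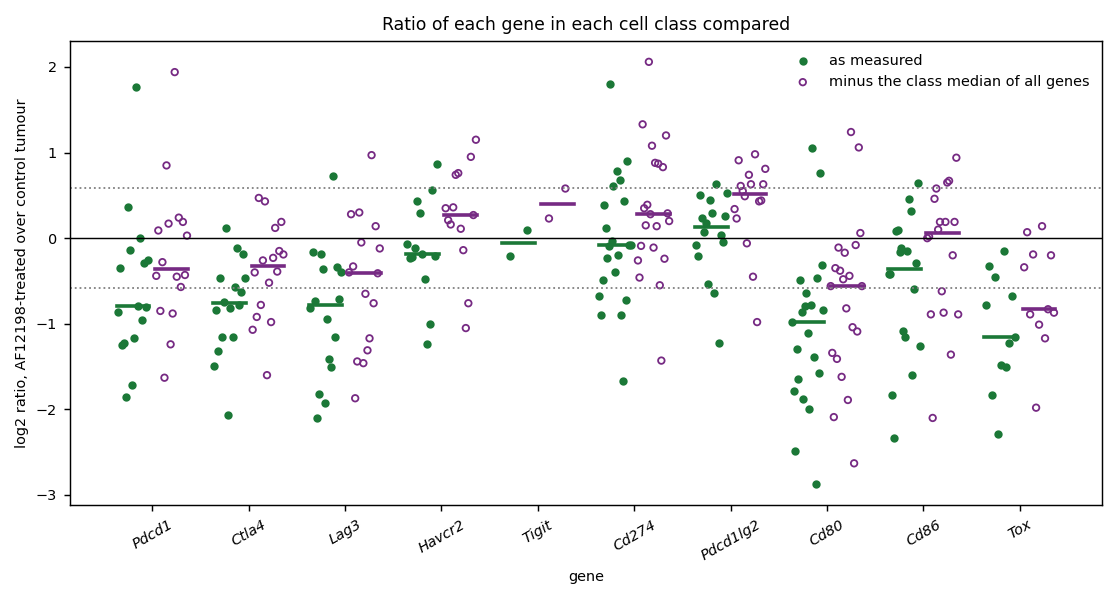
Log2 ratio of AF12198-treated over control tumour (vertical axis) for each gene (horizontal axis), with 1 point per cell class compared, filled green as measured and open purple after the median of all genes in the class was taken off, horizontal bars for medians and dotted lines at 1.5-fold. Most points of Cd80, Ctla4, Lag3, Pdcd1 and Tox lie below 0 as measured, and those of Cd274, Havcr2 and Pdcd1lg2 lie mostly above 0 once the class median is taken off.

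The step from ligated pancreas to tumour was read in 8 classes. Control tumour over ligated gave 36 pairs, of which 23 were higher (63.9%, against 25.1% of all pairs) and 2 lower (5.56%, against 24.6%), with a median log2 ratio of 0.74. Cd80 was higher in 6 of 7 classes, Cd274 in 5 of 7, Cd86 in 3 of 5 and Pdcd1lg2 in 3 of 4, and none of these was lower in any. Lag3 was higher in 1 and lower in 2 of 4, with blood endothelial-like cells 4.45-fold lower (2.16 to 8.73) and ductal-like cells 2.76-fold lower (1.09 to 8.94). Fibroblast-like cells of the ligated pancreas had 0 UMIs of Pdcd1, Ctla4 and Cd86, which were at least 2.49-fold, 3.69-fold and 4.71-fold higher in the control tumour. These bounds rest on low levels in stroma, where UMIs from other cells also lie.

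Treated tumour over ligated gave 27 pairs, 11 higher (40.7%, against 23.3%) and 7 lower (25.9%, against 35.4%), with a median of 0.29. Cd274 was higher in 6 of 7 classes and Cd80 in 0 of 4, and Lag3 was 19.0-fold lower in blood endothelial-like cells (7.18 to 55.6). Both tumour comparisons share the ligated library, and the limit set by the count minimum holds for this one too. Ligated over normal pancreas gave 8 pairs in 3 classes, 5 higher (62.5%, against 19.7%) and 1 lower (12.5%, against 16.0%), with a median of 1.41. Lag3 was 2.68-fold higher in ligated blood endothelial-like cells (1.23 to 5.70), and Cd274 was the 1 member lower, by 2.20-fold (0.996 to 5.73), in the same class. The normal pancreas held too few immune cells for any class to be compared.

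Other genes of the pathway were counted from lists chosen with earlier results of these data known. In CD8 T-like cells of treated over control tumour, where 8.76% of all genes were higher and 41.0% lower, 15 transcription factors of exhausted and memory-like T cells had 1 higher and 9 lower, with a median log2 ratio of −0.76 against −0.44 over all genes. Nr4a1, an early-response gene and also a factor of T cell exhaustion, had 132 and 718 CPM, 5.43-fold lower (4.90 to 6.04), and was lower in 22 of 22 classes, by a median ratio of 0.354. Tbx21, the factor of effector T cells, had 79.7 and 169 CPM, and Batf, an AP-1 factor, 28.9 and 18.8 CPM. Of 17 other inhibitory receptors and ligands 1 was higher and 9 lower (median −0.59), with Cd244a at 32.6 and 87.8 CPM and its ligand Cd48 at 129.6 and 82.0 CPM. Of 16 genes of interferon-gamma and its response 0 were higher and 9 lower (−0.68), among them Cxcl10 at 18.8 and 51.5 CPM. Of 10 ligands and partners of the members 3 were higher and 3 lower (−0.36), with the TIM-3 ligand Hmgb1 at 709 and 428 CPM and the TIGIT competitor Cd226 at 131 and 229.6 CPM.

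Interferon-gamma is known to induce Cd274, and its response genes differed in different ways in the classes that hold the ligand. In neutrophil-like cells 1 of 17 was higher and 3 lower, against 7.70% and 38.3% of all genes (median −0.25, against −0.39), with Cxcl9, a chemokine that draws T cells, at 168 and 110.1 CPM. In mature DC-like cells 2 of 16 were higher and 6 lower, near the 12.3% and 35.7% of all genes, with Cxcl9 at 444 and 199 CPM and the transcription factor Irf1 at 239 and 397 CPM. In monocyte-like cells 0 were higher and 14 of 17 lower (−0.96 against −0.24), where 19.6% of all genes were higher and 35.4% lower, among them Cxcl10 at 115 and 399 CPM. Macrophage-like cells had 0 higher and 1 lower of 17, against 8.19% and 31.6% of all genes. Of the costimulatory TNF family 0 of 6 were higher and 4 lower in mature DC-like cells (−0.61 against −0.35), with Tnfsf9, the ligand of 4-1BB, at 41.6 and 146 CPM and Cd40 at 159 and 246 CPM.

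The genes whose levels lay closest to a member over 50 pairs of class and library, among 12919 genes, give a picture of where each member sits. These are Pearson correlations of log2(CPM + 1), and the points share libraries and depth. For Pdcd1 they were Cxcr6 (0.95), Cd3d (0.94) and Icos (0.93), and for Ctla4 Icos (0.93) and Trac (0.91) were among the first 3. Cd274 lay closest to Srgn (0.88), Ccrl2 (0.87) and Pim1 (0.85), and Cd80 to Il1r2 (0.93), which encodes the decoy receptor for interleukin-1. Cd86 lay closest to the MHC class II gene H2-Aa (0.93). Among the members Pdcd1 and Ctla4 had 0.90, Cd274 and Cd80 0.84, Cd80 and Cd86 0.83, and Pdcd1 and Lag3 0.48.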

How the data were processed

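Single-cell RNA was measured in 4 libraries of mouse tissue (10x Genomics 3′ chemistry), 1 per group, grouped by their titles. The values are UMI counts per gene and cell barcode that the authors deposited in 4 matrices. The submitters' processing notes name Cell Ranger 6.0.0 and mm10. Which annotation and cell-calling settings were used is not given in the sources used. The matrices held 21840 (AF12198-treated tumour), 23189 (control tumour), 1165 (ligated) and 1844 (normal) barcodes, with lowest totals of 500, 760, 500 and 500 UMIs. Cells with at least 250 genes, 500 UMIs and at most 20% mitochondrial UMIs were kept. Doublets were scored with Scrublet through Scanpy 1.11.5, and 993, 2163, 0 and 1 were removed. In the treated tumour the automatic threshold called 1 cell, so the top 5% of scores were removed instead.

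Cells of all libraries were clustered together at 2 levels, without integration (2000 variable genes, 40 principal components, 20 neighbours, Leiden resolution 1.0), leaving out the 10 genes and the pathway lists. A cluster was named where at least 3 markers were raised 2-fold and found in 10% of its cells, and these thresholds were chosen after clusters were seen. The kept cells hold 85735234, 80398550, 5315805 and 11235204 UMIs. UMIs were summed per class and library and given as CPM with exact Poisson intervals, shares of cells with exact Clopper-Pearson intervals, and ratios with exact conditional intervals (SciPy 1.17.1). A fold against 0 UMIs is a bound against 3 counts in that library. Since UMIs remove most copies made by PCR, the intervals cover the counting of molecules only. The scripts were tested on simulated data. All 10 members are named, and genes of other lists by the largest ratios among those with 50 UMIs. The members and lists were chosen with earlier results of these data known. No test was made, as each group is 1 library. Each count was recomputed under 15 alternatives, on the cell filter, doublets, clustering resolution, marker gates, free RNA, scaling and count minimum.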

Additional observations from a re-analysis of the deposited data

How the results depend on the processing

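No paired analysis was possible because each group is 1 library, and for the same reason no replicate could be left out. Of 15 alternatives per count, 13 were planned and 2 (the total without ribosomal protein genes, and no monocyte-like cells) were added after seeing the data. For treated over control tumour the 12 higher pairs became 3 at 2-fold, 26 with free RNA subtracted and 26 scaled by the median ratio, and the 69 lower pairs 42 at 2-fold and 41 scaled by the median ratio. For treated tumour over ligated the 11 higher became 7 at 2-fold, with free RNA subtracted or under a stricter filter (500 genes, 10% mitochondrial) and 21 with no minimum. Its 7 lower became 3 at resolution 0.5, 4 at resolution 2.0, with doublets kept or without monocyte-like cells, and 13 with no minimum. For control tumour over ligated the 23 higher became 14 at 2-fold, 12 at resolution 2.0, 15 with free RNA subtracted or the stricter filter. Its 2 lower became 0 at 50 UMIs, 1 at resolution 0.5, 4 with free RNA subtracted or the mean over cells, and 8 with no minimum. For ligated over normal the 5 higher became 0 at 50 UMIs and 2 at resolution 2.0, and the 1 lower 0 at resolution 0.5 and 3 with no minimum.

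Called log2 ratios changed sign in 16 cases. With doublets kept, Cd274 (0.60) and Cd86 (0.24) did so in monocyte-like cells of treated tumour over ligated, and in treated over control Cd274 (−0.30) and Cd80 (−0.42) in pDC-like and Lag3 (−2.15) in monocyte-like cells. At resolution 2.0 Lag3 (−2.06) did so in monocyte-like cells. With free RNA subtracted, Havcr2 (−2.71) and Cd80 (−0.41) did so in fibroblast-like cells of control over ligated, Cd274 (−0.45) in those of treated over ligated, and Ctla4 (0.15) in neutrophil-like cells of treated over control. As a mean over cells, Cd86 (−0.16) did so in macrophage-like cells of control over ligated, and in treated over control Pdcd1 (1.09) and Cd86 (0.15) in plasma-like, Lag3 (−0.32) in monocyte-like, Cd80 (−0.59) in mast or basophil-like and Cd80 (0.11) in erythroid-like cells. The cause was not tested. Of at most 221 log2 ratios, scaling by the median ratio moved 42, subtracting free RNA 35 and the mean over cells 29 beyond their intervals with no change of sign. Leaving Gm42418, AY036118 and mitochondrial genes out of the total moved none of the 221 beyond its interval. Depth limits Tigit throughout, and every class of the ligated and normal pancreas.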
